A study of Mus musculus with 28 samples.

Results

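The comparison is between 2 circular chromosome conformation capture (4C-seq) libraries of the mouse Gata6 promoter, of 28 samples in the series, 13 of which have files. They were chosen by their labels: 1 library, called CGI below, came from cells with a knock-in of the PE Sox1 CpG island in the Gata6 topologically associating domain (TAD), and 1 library, called WT, came from wild-type cells. Both genotypes derive from E14Tg2a, a line of mouse embryonic stem cells (ESC), and were taken to anterior neural progenitors (AntNPC) over 5 days, in serum-free N2B27 medium with bFGF at first and with the WNT inhibitor Xav939 later. A further pair of AntNPC libraries from the same viewpoint is used for reference, with the transcription factor binding sites of PE Sox1 (TFBS) or with both pieces (TFBS+CGI) inserted. Each condition is 1 library, so no difference between conditions could be tested, and the spread between cultures or between cell clones is unknown. The number of clones behind each knock-in and the coordinates of the insertion are absent from the labels and files used here, so no window below is called the insertion site. The data hold no RNA, so the labelled cell type could not be checked against marker genes.

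A 4C library records which restriction fragments were ligated to 1 chosen fragment, the viewpoint, and the ligation frequency falls steeply with distance along the chromosome. Gata6 encodes a zinc-finger transcription factor best known for the formation of endoderm and heart. Poised enhancers (PE) are distal elements of developmental genes that lie inactive in ESC, often beside an orphan CpG island (CGI), a stretch rich in unmethylated CpG that binds Polycomb proteins. The labels place PE Sox1 sequences in the Gata6 TAD, so the comparison addresses whether a CGI alone alters what the Gata6 promoter touches.

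The fragment with most reads was the same in both libraries, at chr18:11053305-11053963 (mm10), 0.795 kb inside the lower-coordinate end of the Gata6 annotation. It held 90.7% of 6874974 reads in WT and 78.1% of 2523331 reads in CGI. Measurements below use local reads, those within 1 Mb of the viewpoint with 10 kb on each side left out, and are shares of them in percent. WT had 110891 local reads over 1090 fragments, and CGI had 67564 over 857 fragments. Other chromosomes held 5.70% of all reads in WT and 14.8% in CGI. The local signal of WT was the more concentrated on few fragments, with 13.6% of it on the 10 tallest fragments against 9.48% in CGI. The 95% intervals given below treat each read as independent. The libraries are PCR products with no molecular identifiers, so several reads can stem from 1 ligation. The intervals are therefore likely too narrow even for counting error, and they leave out the spread between cultures or clones.

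The Gata6 promoter of the CGI library had more of its local contacts in the gene desert between Gata6 and Rbbp8 and fewer close to the viewpoint and over genes. The desert, chr18:11085637-11633275, spans 548 kb without an annotated protein-coding gene. Its share was 29.2% in WT (32332 reads; interval 28.9% to 29.4%) and 44.1% in CGI (29781 reads; 43.7% to 44.5%). The CGI share was 1.51-fold the WT share, a log2 ratio of 0.60 (95% interval 0.57 to 0.62). The 2 reference libraries had 44.1% (TFBS) and 35.5% (TFBS+CGI) there. The desert share was thus lowest in WT among the 4 libraries, and the CGI value was not set apart from that of TFBS.

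The other large gap without coding genes lies between Mib1 and Gata6, at chr18:10818579-11052509, and went the other way. It held 38.6% of local reads in WT and 32.4% in CGI, a log2 ratio of -0.25 (95% interval -0.28 to -0.23). In the deposited depth-normalised values the log2 ratio was 0.48, the reverse order. The shares of a library add up to its local total, so a higher desert share goes with lower shares elsewhere. The lower shares given here are thus not separate from the desert gain. The reference libraries had 29.0% (TFBS) and 36.1% (TFBS+CGI). The annotated spans of the coding genes in range together held 30.1% in WT and 21.0% in CGI, against 23.4% in TFBS and 24.8% in TFBS+CGI.

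**Figure D1:**
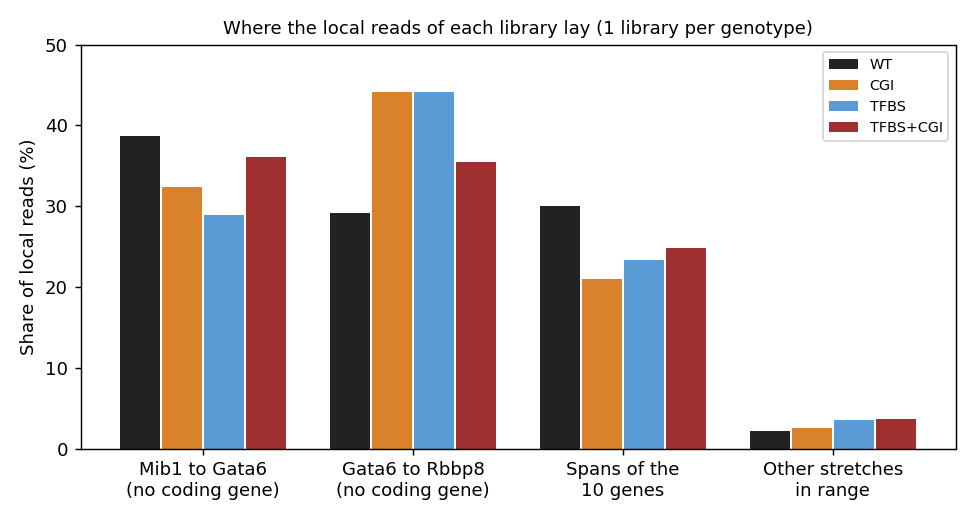
Share of local reads in percent held by the 2 stretches between genes and by the annotated spans of coding genes and by the rest of the range, for the WT, CGI, TFBS and TFBS+CGI libraries, 1 library each. The Gata6 to Rbbp8 desert stands at 29.2% in WT and 44.1% in CGI, while the Mib1 to Gata6 stretch and the gene spans are lower in CGI than in WT.

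Taken over whole sides of the viewpoint, the higher-coordinate side held 50.8% in WT (95% interval 50.5% to 51.1%) and 59.8% in CGI (59.4% to 60.1%). The difference was 8.99 percentage points, a log2 ratio of 0.24 (95% interval 0.22 to 0.25). The reference libraries had 59.6% (TFBS) and 51.8% (TFBS+CGI), so WT and TFBS+CGI lay together and CGI and TFBS lay together. The side shift depends on read numbers per fragment. When each fragment counted once whatever its reads, the higher side held 57.5% in WT and 55.1% in CGI, the reverse order. When only fragments with at least 10 reads were counted, once each, it held 55.1% in WT and 57.4% in CGI.

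The desert gain lay in well-read fragments. Counting every fragment once whatever its reads reversed the order, with 42.9% of fragments in the desert in WT and 41.5% in CGI. Of the fragments with at least 10 reads, 140 lay in the desert in WT (35.9% of that library's) and 209 in CGI (42.8%). In the Mib1 to Gata6 stretch the corresponding numbers were 121 (31.0%) and 158 (32.4%). Of the 10-kb windows in the desert, 51 had at least 50 reads in both libraries together. Of these 51, 21 were at least 2-fold higher in CGI (41.2%) and 10 at least 2-fold lower (19.6%). Over the whole range 31.8% were higher and 34.4% lower. With at least 50 reads in each library, 41 desert windows were left, 13 of them higher and 8 lower. Over the whole range, which includes the desert, this left 95 windows, 22 of them higher and 21 lower. The desert thus differed less from the whole range under this filter. The 5 tallest desert fragments held 18.2% of the desert reads in WT and 11.3% in CGI. Without these 5 fragments of each library the desert shares were 25.2% in WT and 41.1% in CGI, so the difference did not rest on them alone. Uneven read numbers over the other fragments were not tested.

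By distance, CGI had less of its signal near the viewpoint, more at intermediate range on the higher side, and less at the far end. Between 10 and 100 kb, both sides together held 41.4% in WT and 35.5% in CGI (log2 ratio -0.22). Between 100 and 500 kb they held 43.8% and 52.7% (0.27), and beyond 500 kb 14.8% and 11.8% (-0.32). From 10 to 100 kb the reference libraries had 36.8% (TFBS) and 44.9% (TFBS+CGI), and beyond 500 kb 11.6% and 9.94%. Beyond 500 kb WT thus stood above every knock-in library, and TFBS also had a lower near share than WT. The intermediate gain lay on the Rbbp8 side. From 100 to 500 kb, that side held 21.8% in WT and 33.7% in CGI (log2 ratio 0.63), against 33.3% in TFBS and 21.6% in TFBS+CGI. The same distances on the Mib1 side held 22.0% in WT and 19.0% in CGI (-0.22). On the deposited scale of depth-normalised reads (RPM), where all CGI local values are raised by 0.73 (log2) relative to WT, the 10 to 100 kb share also came out higher in CGI, with a log2 ratio of 0.51. With fragments counted once each it was higher in CGI as well, at 31.4% against 28.4% in WT.

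The slopes of the distance decay were close, while the reach of the nearest reads was not. The slope of log10 signal density on log10 distance was -0.86 in WT and -0.83 in CGI, and the reference libraries were at -0.86 (TFBS) and -0.95 (TFBS+CGI). The difference of 0.036 between CGI and WT changed sign when fragments counted once each and when the 10 tallest fragments of each library were left out. The distance within which 50% of the local reads lay was 179 kb in WT and 178 kb in CGI. The distance within which 25% lay was 39.6 kb in WT and 61.2 kb in CGI. On the Rbbp8 side alone, 25% of that side's reads lay within 31.8 kb in WT and 73.1 kb in CGI, and 50% within 242 kb and 276 kb. As a share of all local reads, 10 to 100 kb on the Rbbp8 side held 19.1% in WT and 18.3% in CGI (log2 ratio -0.06). On the Mib1 side the same distances held 22.3% and 17.2% (-0.38), so the lower near share lay mostly on the Mib1 side.

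**Figure D2:**
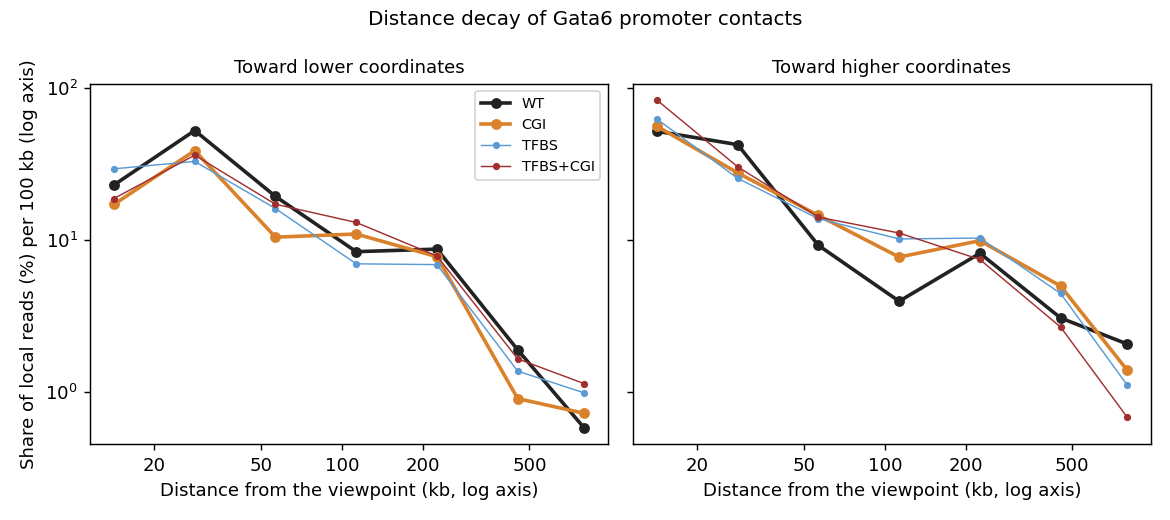
Signal density (share of local reads in percent per 100 kb, log axis) against distance from the viewpoint (kb, log axis) on each side, with lines for the WT, CGI, TFBS and TFBS+CGI libraries. The WT and CGI lines fall with like slopes, -0.86 and -0.83 over both sides.

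In 50-kb windows, all 40 windows had at least 50 reads in both libraries together. Of these, 8 were at least 2-fold higher in CGI (20%) and 5 at least 2-fold lower (12.5%), so 32.5% passed 2-fold either way. On the deposited RPM scale the split was 15 higher and 4 lower. The same count between other pairs of the 4 libraries ran from 9 windows (CGI and TFBS) to 20 (WT and TFBS+CGI), so 13 windows between CGI and WT is within the range of these pairs.

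The largest gain of share was 400 to 450 kb toward Rbbp8, at chr18:11453634-11503633, inside the desert. It held 2.61% in WT (2890 reads) and 7.34% in CGI (4958 reads), a log2 ratio of 1.49 (95% interval 1.43 to 1.56). The reference libraries had 4.04% (TFBS) and 1.66% (TFBS+CGI), so CGI was the highest of the 4. The next gain was 100 to 150 kb toward Rbbp8, at chr18:11153634-11203633. It held 0.691% in WT (766 reads) and 3.92% in CGI (2649 reads), a log2 ratio of 2.50 (2.39 to 2.62), with 7 fragments of at least 10 reads in WT and 22 in CGI. TFBS had 4.12% there and TFBS+CGI 1.89%, so WT was the lowest of the 4 and CGI was not the highest.

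The remaining pair of leading gains also lay in the desert. The window 250 to 300 kb toward Rbbp8 held 3.44% in WT and 6.02% in CGI, with 6.0% in TFBS and 4.23% in TFBS+CGI. The window 300 to 350 kb on that side, which overlaps the long non-coding RNA Gm35918, held 4.60% in WT and 6.11% in CGI, with 4.02% in TFBS and 3.39% in TFBS+CGI. Neither reached 2-fold between CGI and WT. With fragments counted once each, whatever their reads, 3 of the 4 leading gains turned: the log2 ratio was -0.25 at 100 to 150 kb (44 fragments in WT and 29 in CGI), -0.14 at 250 to 300 kb and -0.22 at 300 to 350 kb. At 400 to 450 kb it was 0.15.

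Of the leading losses, 3 lay beside the viewpoint and 1 in a distant gene. The window 10 to 50 kb toward Mib1, which overlaps the antisense transcript Gata6os and 9130001E16Rik, held 13.9% in WT and 10.4% in CGI. The window 10 to 50 kb toward Rbbp8, over the body of Gata6, held 14.4% in WT and 12.3% in CGI. The window 50 to 100 kb toward Mib1 held 8.43% in WT and 6.80% in CGI. These 3 were differences under 1.5-fold, and each turned both in deposited RPM and with fragments counted once each (0.0049, 0.063 and 0.25 on the log2 scale). The fourth was 500 to 550 kb toward Mib1, at chr18:10503634-10553633 in Greb1l, with 2.60% in WT (2883 reads) and 0.238% in CGI (161 reads), a log2 ratio of -3.45 (95% interval -3.69 to -3.22). TFBS had 0.537% and TFBS+CGI 0.827% there, so WT stood above the other 3. The fragment that was tallest there held 37.6% of the window's reads in WT, and only 3 fragments in CGI had at least 10 reads. Over fragments read in both libraries alone, this window was higher in CGI (log2 ratio 4.60).

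**Figure D3:**
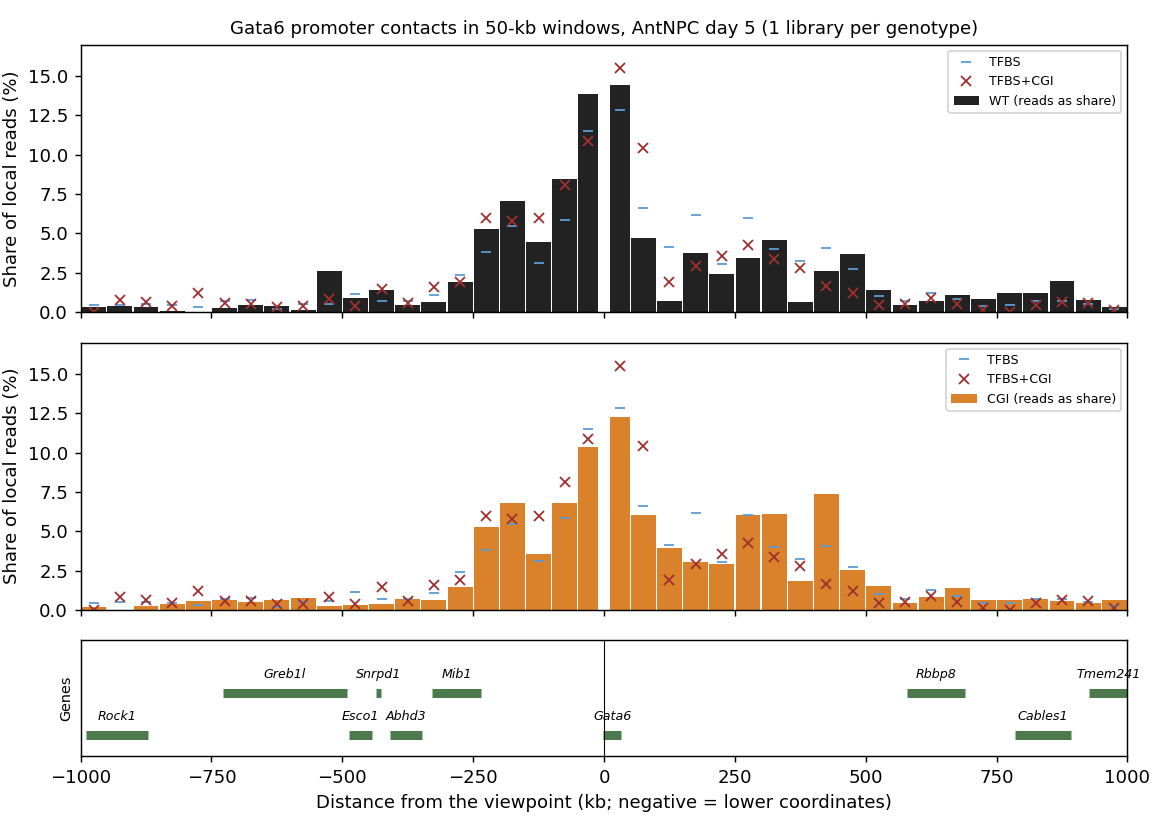
Share of local reads in percent in 50-kb windows against distance from the viewpoint (kb, negative toward Mib1 and positive toward Rbbp8), with WT as bars above and CGI as bars below, TFBS and TFBS+CGI as marks on both, and coding genes at the bottom. The CGI library lies above WT at 100 to 150 kb and 400 to 450 kb toward Rbbp8 and below it beside the viewpoint.

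In 10-kb windows, 154 of 198 had at least 50 reads in both libraries together. Of these, 49 were at least 2-fold higher in CGI (31.8%), 53 were at least 2-fold lower (34.4%) and 52 were within 2-fold, so 66.2% passed 2-fold. On the deposited RPM scale the split was 71 higher and 37 lower. A window that reached the minimum through 1 library alone had to differ. With at least 50 reads in each library, 95 windows were left, 22 of them higher and 21 lower. The median log2 ratio over the tested windows was -0.04, a centre that scaling each library to its local total largely fixes.

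The share of windows past 2-fold was larger far from the viewpoint. Within 100 kb of the viewpoint 4 of 18 tested windows passed 2-fold (22.2%), and beyond 500 kb 48 of 60 did (80%). With at least 50 reads in each library the far count was 13 of 25 (52.0%) and the near count stayed at 4 of 18, so much of the far share came from windows read in 1 library. The median window had 6 fragments of at least 10 reads in WT and 7 in CGI in the first zone, and 0 in both libraries in the last. The other pairs of the 4 libraries showed the same course, from 22.2% to 38.9% near and from 69.3% to 83.1% far. Between 200 and 500 kb the sides differed. Toward Rbbp8, 14 of 29 tested windows were higher in CGI and 7 lower (median log2 ratio 0.97). Toward Mib1, 6 of 27 were higher and 15 lower (median -1.20). Over the whole range 31.8% were higher and 34.4% lower. With at least 50 reads in each library, 9 of 23 were higher and 6 lower toward Rbbp8. Toward Mib1, 1 of 11 was higher and 4 were lower, so most of the 15 lower windows there had under 50 reads in 1 library.

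The 10-kb window of largest gain was 410 to 420 kb toward Rbbp8, at chr18:11463634-11473633 in the desert. It held 0.690% in WT (765 reads) and 4.09% in CGI (2766 reads), a log2 ratio of 2.57, with 8 fragments of at least 10 reads in WT and 12 in CGI. TFBS had 1.46% and TFBS+CGI 0.668%, so the CGI library stood above all 3 others. A near neighbour gained as well: 430 to 440 kb held 0.0911% in WT (101 reads) and 1.34% in CGI (907 reads). The window next to it, 440 to 450 kb, was among the leading losses, with 1.71% in WT and 0.302% in CGI. Neighbouring windows within this 50-kb stretch thus went opposite ways.

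The other leading 10-kb gains lay closer. Toward Rbbp8, 70 to 80 kb held 0.629% in WT and 2.32% in CGI, and 100 to 110 kb held 0.394% and 1.78%. Toward Mib1, 80 to 90 kb, within the long non-coding RNA Gm35814, held 0.423% in WT and 1.72% in CGI. The largest loss, 50 to 60 kb toward Mib1, was at chr18:10993634-11003633, a window that Gm35814 overlaps in part (it ends at 10997808). The window held 3.59% in WT (3986 reads) and 0.247% in CGI (167 reads). Over its span with 5 kb on each side, Gm35814 had 13.8% in WT and 14.2% in CGI.

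The remaining losses were in Gata6, beside it and in Greb1l. The window 20 to 30 kb toward Rbbp8, in Gata6, held 6.15% in WT and 3.69% in CGI, with 3.69% in TFBS and 3.71% in TFBS+CGI. The window 20 to 30 kb toward Mib1 held 5.50% in WT and 3.18% in CGI, with 3.08% in TFBS and 2.11% in TFBS+CGI. In both windows WT thus stood above every knock-in library, and CGI was not the lowest toward Mib1. The window 540 to 550 kb toward Mib1, in Greb1l, held 1.64% in WT (1815 reads) and 0.00296% in CGI (2 reads). The WT reads lay on only 2 fragments, and TFBS had 0.00517% and TFBS+CGI 0.263% there.

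**Figure D4:**
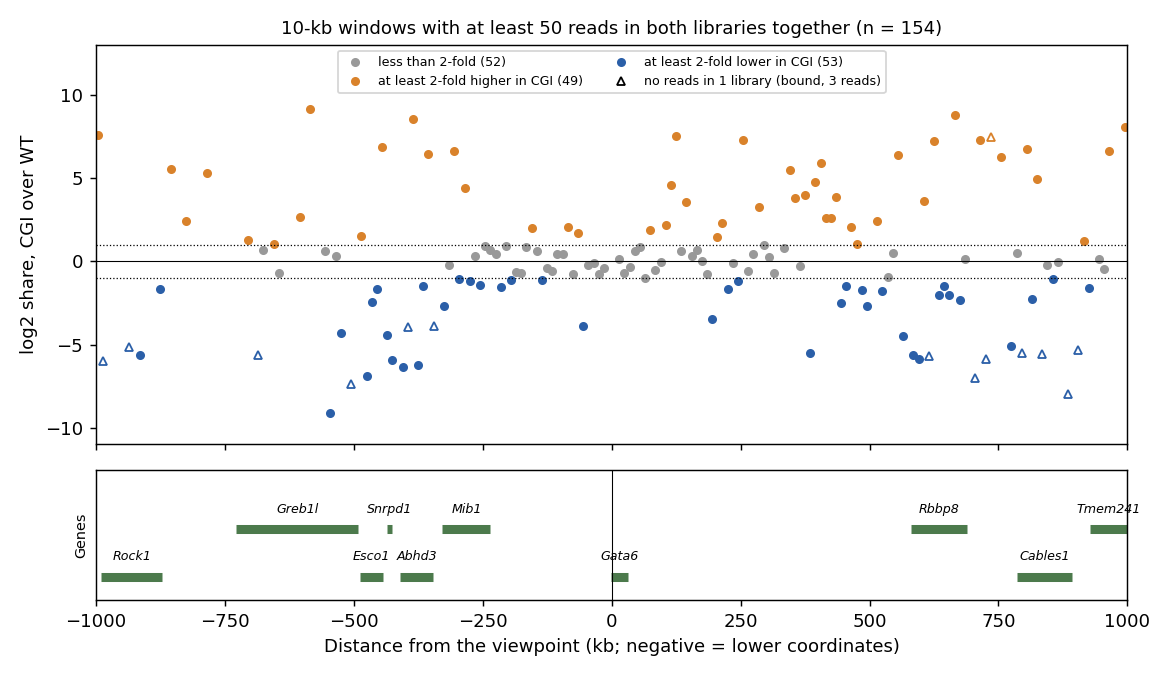
Log2 ratio of local shares, CGI over WT, in 10-kb windows with at least 50 reads in both libraries together, against distance from the viewpoint (kb, negative toward Mib1), with lines at 2-fold, open triangles for windows with no reads in 1 library (set at 3 reads) and coding genes below. Values spread more widely with distance, and 102 of 154 windows lie past 2-fold.

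Single fragments were shared far less than windows. Of 1632 local fragments read in either library, 315 were read in both, 775 in WT only and 542 in CGI only. Fragments read in CGI only held 50.8% of its local reads, and fragments read in WT only held 61.7% of that library's. Of fragments with at least 10 reads, 74 were so read in both, which is 19.0% of those of WT and 15.2% of those of CGI. The smaller of the 2 shares, summed over fragments, gave an overlap of the profiles of 12.9%, against 62.3% in 10-kb and 81.7% in 50-kb windows. Merging fragments into wider windows can only raise this overlap, and the distance decay shared by both libraries adds to it.

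The tallest fragments were rarely shared. The tallest of WT, chr18:10874580-10874764 in the stretch toward Mib1, had 2442 reads in WT (2.20% of local reads) and 0 in CGI. The next, chr18:11359412-11359501 in the desert, had 1948 reads in WT and 0 in CGI, and chr18:10996176-10996354 had 1756 and 0. The tallest of CGI, chr18:11355220-11355310, had 1068 reads in CGI (1.58%) and 2 in WT. It lies within 5 kb of the desert fragment with 1948 reads in WT, so here each library had a tall fragment where the other had next to nothing, in the same small region.

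Within Gata6 itself the tall fragments also differed. The fragments at chr18:11082207-11082804 and chr18:11073225-11073426 had 1362 and 1319 reads in WT and 114 and 430 in CGI. The fragments at chr18:11064192-11064480 and chr18:11063763-11063933 had 675 and 620 reads in CGI and 9 and 6 in WT. In the 400 to 450 kb region, 2 fragments led in CGI: chr18:11486613-11486768 with 670 reads against 7 in WT, and chr18:11473283-11473829 with 647 against 4.

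Low-read fragments differed too. The median local fragment had 3 reads in WT and 19 in CGI. WT had 700 local fragments with 1 to 9 reads, which held 1.47% of its local reads, and 92.1% of them had at least 10 reads in another of the AntNPC libraries. For WT fragments with at least 10 reads that share was 59.7%. In CGI, 369 fragments had 1 to 9 reads, 81.3% of which had at least 10 in another library, against 63.5% of its better-read fragments. The part of these values in the counts of shared fragments was not tested. Thinned in expectation to the 67564 local reads of CGI, WT would show 928 local fragments and 174 of the 198 10-kb windows with a read, against 857 and 165 observed in CGI. The order was the other way for fragments of at least 10 reads, of which WT had 390 and CGI 488.

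Of the 10 coding genes in range, each measured from 5 kb before to 5 kb past its annotation, 8 had a lower and 2 a higher share in CGI than in WT (median log2 ratio -0.48), whereas on the deposited RPM scale 6 were higher (median 0.25). At least 2-fold lower were 3 genes and at least 2-fold higher were 0, so 30% of the genes passed 2-fold, all of them lower. All 3 lie beyond 400 kb from the viewpoint, where windows also differed often between the libraries. When fragments counted once each, 0 genes passed 2-fold, and over the annotations alone, without the added 5 kb, 4 did.

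Gata6, whose span begins at the viewpoint, held 13.6% in WT and 10.6% in CGI (log2 ratio -0.35), against 10.6% in TFBS and 13.2% in TFBS+CGI, and with fragments counted once each its log2 ratio was 0.18. Among the genes toward lower coordinates, Mib1, a ubiquitin ligase needed for Notch ligand signalling and the nearest coding neighbour on that side, held 3.08% in WT and 3.02% in CGI. Its log2 ratio of -0.03 (95% interval -0.11 to 0.05) did not differ from 0 beyond counting error, whereas over the annotation alone it was -0.20 (-0.29 to -0.11). Beyond it, Abhd3, a phospholipase of the alpha/beta hydrolase family, held 1.23% and 0.682%, and Esco1, an acetyltransferase of cohesin, held 0.907% and 0.645%. Both were within 2-fold, but over the annotation alone, without the 5 kb on each side, Esco1 was 2.19-fold lower in CGI (0.899% and 0.411%).

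Snrpd1, a core protein of spliceosomal particles, held 0.655% in WT (726 reads) and 0.0281% in CGI (19 reads), 23.3-fold lower, and 63.1-fold lower over its annotation alone. A single fragment held 85.5% of the WT reads, and with fragments counted once each the log2 ratio was -0.14. Greb1l, a gene needed for kidney development, held 3.82% in WT and 2.77% in CGI. Rock1 held 0.982% in WT (1089 reads) and 0.287% in CGI (194 reads), a log2 ratio of -1.77 (95% interval -2.00 to -1.55), and it was -3.03 over the annotation alone. Rock1, Snrpd1, Abhd3 and Mib1, 4 of the 10 genes, were lower in CGI than in each of the other 3 AntNPC libraries. For Mib1 the gap to WT was slight (3.02% against 3.08%). Over the whole range, 11 of 40 50-kb windows and 57 of 198 10-kb windows were also lowest in CGI.

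Toward higher coordinates, Rbbp8, a DNA end resection factor and the gene at the far edge of the desert, held 2.10% in WT and 2.21% in CGI. Its log2 ratio of 0.07 (95% interval -0.02 to 0.17) did not differ from 0 beyond counting error, and was -0.38 with fragments counted once each. Cables1, which encodes a cyclin-dependent kinase binding protein, held 3.59% in WT (3983 reads) and 1.54% in CGI (1041 reads), a log2 ratio of -1.22. That ratio was -0.49 in deposited RPM and -0.52 with fragments counted once each, both within 2-fold. Over fragments read in both libraries alone it reversed to 5.51. TFBS had 1.47% and TFBS+CGI 1.05% at Cables1, so there WT stood above all 3 knock-in libraries. Tmem241, which runs past the limit of the range, held 0.847% in WT and 0.947% in CGI.

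**Figure D5:**
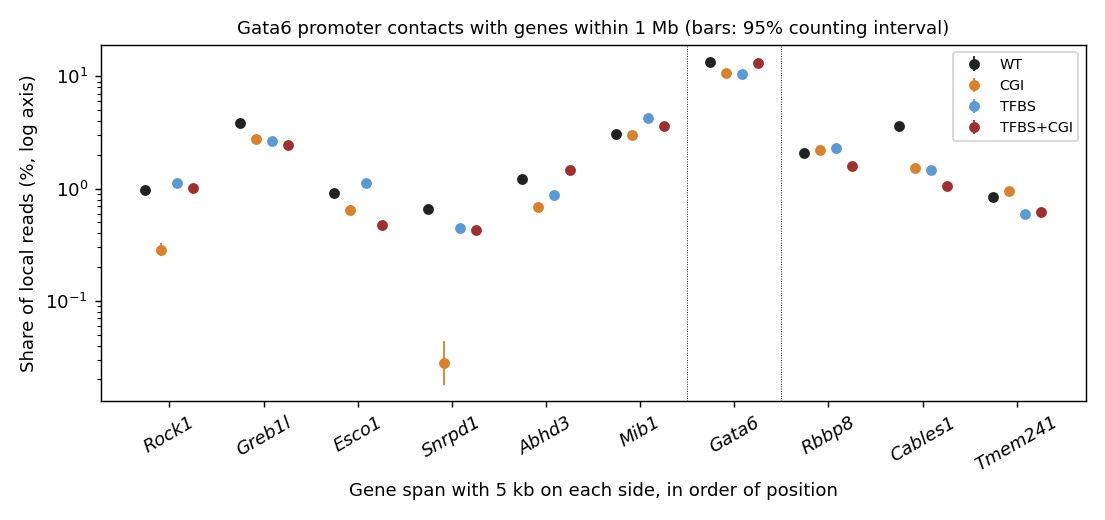
Share of local reads in percent (log axis, with 95% counting intervals) over each of the 10 coding genes within 1 Mb of the viewpoint, with 5 kb on each side, in the WT, CGI, TFBS and TFBS+CGI libraries. Rock1, Snrpd1 and Cables1 are at least 2-fold lower in CGI than in WT, while Mib1 and Rbbp8 lie close together in these 2 libraries.

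Among long non-coding RNAs, Gm35918 in the desert held 0.032% in WT (36 reads) and 0.787% in CGI (532 reads). Gm41665 went the other way, with 0.609% in WT (675 reads) and 0.010% in CGI (7 reads). Mir133a-1hg, the host of muscle microRNAs, held 1.10% in WT and 0.90% in CGI, and Gata6os, antisense to Gata6, held 1.28% and 1.33%. The last pair differed little, whereas Gm35918 and Gm41665 had under 50 reads in 1 of the libraries. Gm6277, beside Cables1, had 1089 reads in WT and 248 in CGI, a log2 ratio of -1.42. With 5 kb added on each side its span overlaps that of Gm41665, so their losses are not separate. A single fragment held 99.3% of the WT reads at Gm41665, and a single fragment held 61.5% of those at Gm6277.

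The longest stretches without a fragment of at least 10 reads also differed. In CGI it was 114 kb long, chr18:10063560-10177947 over Rock1, with 19 reads in CGI and 745 in WT. In WT it was 87.6 kb long, chr18:10264300-10351856 toward Greb1l, with 15 reads in WT and 805 in CGI. Each of these stretches was picked for its low count in 1 library, so the contrast follows in part from the choice. Toward Rbbp8 the longest such stretches were 40.0 kb in WT and 41.9 kb in CGI, which is nearly alike.

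Which reference library was nearest to CGI depended on the measure. The overlap of signal in 50-kb windows was 87.6% between CGI and TFBS, 81.7% between CGI and WT and 80.5% between CGI and TFBS+CGI. Over single fragments the overlap of signal with CGI was also largest for TFBS, at 19.7%, against 16.3% for TFBS+CGI and 12.9% for WT. By fragments read at all, whatever their reads, the order was another. Of CGI fragments, 83.8%, with 92.4% of its local reads, were also read in TFBS+CGI. In TFBS it was 64.8%, with 71.9%, although TFBS had the more fragments (2233 against 1393). Of WT fragments, 91.6%, with 96.1% of its local reads, were also read in TFBS, against 44.1% in TFBS+CGI and 28.9% in CGI. By fragments read at all, WT thus paired with TFBS, and CGI with TFBS+CGI, whereas by overlap of signal CGI was nearest to TFBS. The cause of this pairing was not tested. Across the 40 windows, CGI and WT had a Pearson r of 0.91 and a Spearman rho of 0.72; the windows share the distance decay from 1 viewpoint, which alone gives a positive value. CGI was above all 3 others in 8 windows, below all 3 in 11 and between them in 21. These pairs share libraries, and with 1 library each it cannot be told apart whether a value belongs to the genotype or to the library.

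Reads of the inserted CGI copy that match the reference would map to its donor locus near Sox1 on chromosome 8. The donor fragment seen in the TFBS and TFBS+CGI libraries, at chr8:12429908-12430215 within the annotated span of Sox1ot, had 175 and 845 reads there. It had 5 reads in CGI and 1 in WT. The log2 ratio of CGI over WT as a share of local reads was 3.04, with a 95% interval of -0.12 to 8.60 that includes 0. In the CGI library 286 of 658 chromosome 8 fragments had at least 5 reads, so 5 reads did not stand out. The fragment had 175 reads in TFBS, a library without the CGI insert. Its reads therefore cannot decide whether the Gata6 promoter touched the inserted CGI. Whether that fragment is part of the CGI knock-in is stated in no label used here.

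A library of the CGI genotype in ESC also had the Gata6 promoter fragment as its tallest, with 83.1% of its reads, although its label names the insertion as viewpoint. Its desert share was 33.2% and its Mib1 to Gata6 share was 32.1%, so its desert value lay between those of WT and CGI in AntNPC.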

How the data were processed

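The 4C-seq chromatin was digested with NlaIII and then DpnII, per the labels' protocols. For each library the authors deposited RPM values per restriction fragment. Reads were mapped to mm10 with HISAT2, per the submitters' processing notes; for version, read filters and RPM formula: not given in the sources used here. Every RPM value was a whole multiple of the library's smallest (100% within a tolerance of 0.1), so reads were recovered by division. Local signal was taken as shares within 1 Mb, 10 kb on each side left out. Windows of 10 and 50 kb needed 50 reads in both libraries together, and a call meant a 2-fold difference in share, with 3 reads in place of 0. Shares have Wilson and log2 ratios exact conditional Clopper-Pearson 95% intervals. With 1 library per condition there is no p-value, and the recovered reads were not given a count test. Depth was matched by exact hypergeometric expectation. Genes are those RefSeq lists on GRCm38.p6 (the assembly of mm10), without strand.

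The text names all coding genes in range, the 5 10-kb and 4 50-kb windows with the largest gain and loss of share, and the 5 tallest fragments of each library; other windows and non-coding genes were chosen after their values were seen. Members and lists were chosen with earlier results of these data known. Riok3, listed for the higher side, is outside the genes measured. Python 3.11.15, numpy 2.4.6, pandas 2.3.3 and scipy 1.17.1 were used.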

Additional observations from a re-analysis of the deposited data

Results flagged for a closer look

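Reads on other chromosomes, which no comparison above uses, numbered 5.52 per local read in the CGI library and 3.53 in WT. The reference libraries had 1.37 (TFBS) and 2.31 (TFBS+CGI). The CGI library was thus the highest of the 4, and the part of this in the local differences was not tested.

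Within 100 kb of Sox1, the donor locus on chromosome 8, the CGI library had 45 reads and WT had 1. Of the 45 reads, 37 lay on a single fragment, chr8:12469625-12469818, where WT and TFBS had 0 and TFBS+CGI had 2. In the CGI library 131 chromosome 8 fragments had at least 37 reads, so a fragment of this height was common there.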

How the results depend on the processing

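Values below are CGI against WT. No paired analysis was possible because each condition is 1 library. Leaving out the 10 tallest fragments, fragments read in both libraries, at least 10 reads with fragments counted once each, leaving out the 50-kb window of largest gain, at least 50 reads in each library, and genes without the added 5 kb (4 past 2-fold) were added after seeing the data. The 102 10-kb windows past 2-fold became 29 with fragments counted once each, 46 with fragments read in both, 47 with at least 10 reads and fragments counted once each, 46 with at least 500 reads per window and 43 with at least 50 reads in each library; the last 2 test fewer windows. The 13 50-kb windows became 5 with fragments counted once each and 8 with at least 10 reads as well. The 3 genes became 0 with fragments counted once each. The slope difference of 0.036 became 0.0099 with 25 kb left out, 0.014 with values capped at the 95th percentile, 0.12 with fragments read in both, and reversed to -0.075 with fragments counted once each, -0.040 with at least 10 reads as well, and -0.0092 without the 10 tallest. The near-share log2 ratio of -0.22 reversed to 0.51 in deposited RPM and 0.14 with fragments counted once each. It was -0.11 as a share of chromosome 18, -0.16 with 25 kb left out, -0.16 capped, -0.13 without the 10 tallest, -0.37 with fragments read in both, -0.13 with at least 10 reads and fragments counted once each, and -0.15 without the window of largest gain. The higher-side log2 ratio of 0.24 reversed to -0.063 with fragments counted once each. It was 0.97 in deposited RPM, 0.35 as a share of chromosome 18, 0.27 with 25 kb left out, 0.19 capped, 0.29 with fragments read in both, 0.058 with at least 10 reads and fragments counted once each, and 0.19 without the window of largest gain. The desert log2 ratio of 0.60, a result added after seeing the data, reversed to -0.048 with fragments counted once each. It was 1.33 in deposited RPM, 0.71 as a share of chromosome 18, 0.52 with 25 kb left out, 0.50 capped, 0.47 without the 10 tallest, 0.90 with fragments read in both, 0.25 with at least 10 reads and fragments counted once each, and 0.54 without the window of largest gain. Deposited RPM shifts all local log2 ratios by 0.73; for the others the cause was not tested. Depth-matched coverage and the donor ratio kept their direction where they had a value; the donor ratio has none with at least 10 reads, since both fragments fall under it. Beyond 500 kb the median 10-kb window had 0 fragments of at least 10 reads in WT and CGI.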
